A study of Mus musculus with 15 samples.

Results

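The genes described here are 40 genes of glucose breakdown and of the response to low oxygen, taken by symbol from 24891 genes measured by RNA sequencing in mouse tumors, and all 40 were found in the table. They fall into 4 transporters of glucose and lactate, 16 glycolytic enzymes, 3 regulators of glycolytic flux (PDK1, PFKFB3 and PFKFB4), 14 other hypoxia targets, and the genes of the oxygen-sensing core HIF1A, EPAS1 and VHL. The study asked what loss of B7-H3, an immune checkpoint protein encoded by CD276, does in tumors with hyperactive mTORC1. Each of 5 groups held 3 libraries. The control was sh-NC, a non-targeting shRNA, both for bulk tumors and for sorted cells. The first shRNA against B7-H3, sh-B7-H3 (1), was used in bulk tumors and in sorted cells, and a second one, sh-B7-H3 (2), in sorted cells. All tumors grew from Tsc2-deficient 105K renal tumor cells under the skin of wild-type C57BL/6J mice, in the study's methods 6-week-old males with an intact immune system, so every group, controls included, lacks TSC2. The cells stably expressed the shRNA, and sorted cells are what was left after magnetic beads had removed non-tumor cells. Values are FPKM scaled for library composition, called scaled FPKM below, and a gene was called changed in a comparison when limma's p, adjusted by the Benjamini-Hochberg method over all genes tested, was below 0.05. Fold changes are on the log2(scaled FPKM + 1) scale with their standard error, which understates the change of genes of low level.

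Glycolysis turns glucose into pyruvate in the cytosol, and lactate dehydrogenase can turn the pyruvate into lactate for export. The HIF transcription factors, held low in oxygen by prolyl hydroxylases and by VHL, raise most genes of this pathway along with genes for vessel growth, mitophagy and collagen hydroxylation when oxygen falls. TSC2 restrains mTORC1, and cells without it are known for high HIF1A translation and high glycolysis.

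The targeted gene and the host markers followed the labels only in part. CD276 measured 7.29, 13.96 and 11.5 scaled FPKM in sorted sh-B7-H3 (1) cells against 34.0, 20 and 17.3 in sorted sh-NC cells, and the ranges did not overlap (adjusted p = 0.0547). It measured 23.3, 25.4 and 25.7 in the libraries labelled sorted sh-B7-H3 (2), and 22.3, 17.8 and 24.4 in those labelled bulk sh-B7-H3 (1) against 20.8, 23.2 and 23.5 in bulk sh-NC, so the transcript was not detectably lower there (adjusted p = 0.775 and 0.709). The groups are therefore named by their shRNA, and all values of sorted sh-B7-H3 (2) and bulk sh-B7-H3 (1) are those of libraries with these labels. The 8 markers of renal epithelium examined were above 0 in every library, with PAX8 between 18.3 and 34.7 scaled FPKM. Not all were even across groups. EPCAM measured 17.2 to 27.4 in sorted sh-NC, 126 to 168 with sh-B7-H3 (1) and 164 to 221 with sh-B7-H3 (2). KRT18 also rose with each shRNA in sorted cells (0.91 ± 0.16 and 1.07 ± 0.15). With sh-B7-H3 (2) KRT8 rose (0.59 ± 0.15) and EMX2 fell (-0.74 ± 0.16). CDH1, PAX8, PAX2 and CDH16 were called with neither shRNA. A list of 6 leukocyte markers summed to between 3.09 and 7.93 scaled FPKM in 8 of 9 sorted libraries and to 188 in sorted sh-B7-H3 (2) replicate 1, inside the bulk range of 152 to 327. In that library T cell (16.3), macrophage (391) and endothelial (23.5) sums were also above those of every other sorted library, so it followed its label as sorted tumor cells only in part. Its sum of 10 genes of tissue dissociation stress was 967, against 158 to 203 in bulk. Its sum of the 8 epithelial markers was 1343, beside 1245 and 1250 in the other replicates of its group. Among sorted libraries, 6 fibroblast markers summed to 114 to 152 with sh-B7-H3 (2), 49.0 to 81.4 with sh-B7-H3 (1) and 31.2 to 77.5 in sh-NC. The macrophage sum was 30.7 to 44.1 in sorted sh-NC, 67.9 to 94.6 with sh-B7-H3 (1) and 61.5 to 391 with sh-B7-H3 (2). Its markers did not move together. With sh-B7-H3 (1) limma called CD68 and CSF1R higher (adjusted p = 0.00768 and 0.000296) but not C1QA, C1QB or C1QC (0.333, 0.795 and 0.585). ADGRE1 and MRC1 were below 1 scaled FPKM in both groups and not tested. In sh-B7-H3 (2) replicates 2 and 3 C1QA was 0.8735 and 0.8627, against 1.38 to 2.73 in sorted sh-NC. The part of these cells in the sorted values was not tested. Read totals are not in the files, and the spacing of the lowest values put the depth of the libraries between 0.468 and 1 of the deepest.

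With the sorted libraries of both shRNAs pooled, SLC2A1 and 10 of the 16 glycolytic enzymes fell against sh-NC, beside 7.92% of all genes tested. In bulk sh-B7-H3 (1) tumors SLC2A1 and 11 of the 16 enzymes fell against sh-NC, beside 8.52% of all genes tested. PFKFB3 rose in both materials. HK1, HK2, PFKL, GAPDH, PGK1 and ENO2 did not pass the test in sorted cells, nor HK1, HK2, PFKM, GAPDH and ENO2 in bulk. Summed over the 16 enzymes, sorted sh-NC libraries held 5292, 6503 and 5782 scaled FPKM, the sh-B7-H3 (1) libraries 3251, 3771 and 3759, and the sh-B7-H3 (2) libraries 2486, 3353 and 3486. Bulk sh-NC tumors held 5866, 5371 and 6652 against 2986, 3365 and 3501 in bulk sh-B7-H3 (1) tumors. In the same bulk tumors fibroblast markers summed to 81.1 to 156 in sh-NC and 265 to 635 with sh-B7-H3 (1), T cell markers to 1.53 to 2.31 and 5.34 to 17.3, neutrophil markers to 5.42 to 11.1 and 2.10 to 3.59, and skeletal muscle genes to 3.19 to 23.2 and 40.6 to 811, and the part of these cells in the bulk values was not tested. No sh-B7-H3 library reached the lowest control library of its kind, and the ratio of group means was 0.613 and 0.530 for the 2 shRNAs in sorted cells and 0.551 in bulk. The 4 transporters together gave ratios of 0.580, 0.474 and 0.463 in the same order, and the 14 other hypoxia targets 0.687, 0.455 and 0.583. These sums were not tested and are carried by the most abundant genes, which for the enzymes are ALDOA, PKM, GAPDH, PGK1, LDHA and PGAM1.

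**Figure D1:**
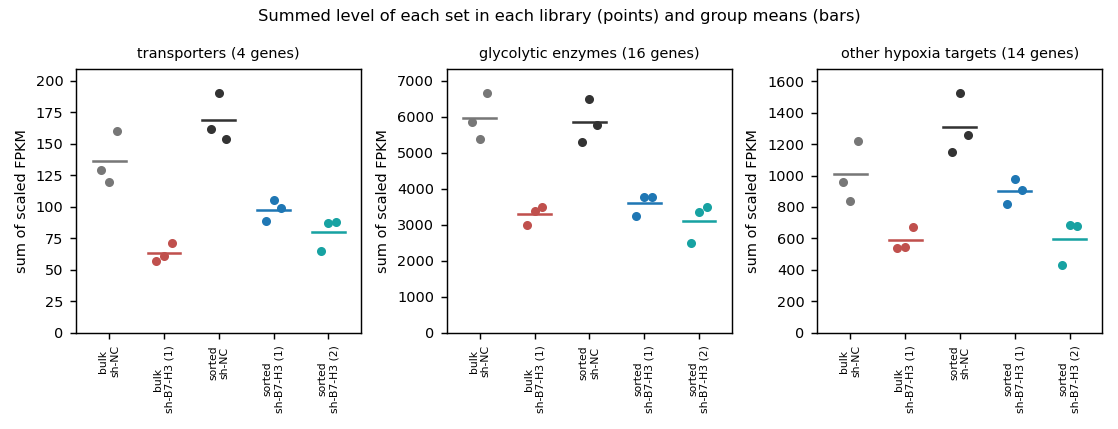
Summed scaled FPKM (vertical axes, from 0) of the transporters, glycolytic enzymes and other hypoxia targets in each of the 15 libraries, with a bar at the mean of each group of 3. In each panel all sh-B7-H3 libraries lie below all control libraries of the same material, and for the enzymes the 6 sorted sh-B7-H3 libraries lie between 2486 and 3771 against 5292 to 6503 in sorted sh-NC.

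Of the 36 genes that could be tested in sorted cells, 16 fell and 2 rose with the 6 libraries of both shRNAs pooled against sh-NC. Of all 11424 genes tested, 7.92% fell and 12.6% rose. Results given for both shRNAs come from this pooled fit and are not calls with each shRNA. Of the 2 that rose, PFKFB4 passed the filter through the sh-B7-H3 libraries, so its call carries no weight. The median log2 fold change of the 36 genes was -0.60 against 0.01 for all genes. Every one of the 6 sh-B7-H3 libraries lay below every control library for 17 of the 36 genes and above for 2, where 9.35% and 13.6% of all genes did so. The shRNAs share the sorted sh-NC libraries as controls, so the next counts are not independent of each other. With sh-B7-H3 (1) alone, 8 genes fell and 2 rose, beside 4.38% and 9.03% of all genes, and with sh-B7-H3 (2) alone 18 fell and 2 rose, beside 7.44% and 11.7%. The 8 that fell with each shRNA alone were ENO1, GPI1, NDRG1, PFKM, PFKP, PGAM1, PKM and SLC2A1. The 2 that rose with each were PFKFB3 and PFKFB4, with the same limit for PFKFB4. In bulk tumors 17 of 38 genes fell and 2 rose, beside 8.52% and 12.8% of 11800 genes, with a median of -0.44 against 0.02. There the 3 sh-B7-H3 libraries lay below the 3 controls for 21 genes and above for 3, where 20.1% and 24.4% of all genes did so. SLC2A3 and CAR9 were too low to test anywhere, and SLC16A3 and EPAS1 too low in sorted cells. The counts rest in part on single libraries. Without sorted sh-NC replicate 2 the 18 genes called for both shRNAs became 9, the 10 called for sh-B7-H3 (1) became 4 and the 20 called for sh-B7-H3 (2) became 12. Without sorted sh-NC replicate 1 the count for sh-B7-H3 (1) became 18, and without its own replicates 1, 2 and 3 it became 4, 6 and 5. The count for sh-B7-H3 (2) became 13 without its replicate 3. The 19 called in bulk became 9 without bulk sh-B7-H3 (1) replicate 1, 12 without bulk sh-NC replicate 1 and 11 without bulk sh-NC replicate 3. Without the library with host markers, sorted sh-B7-H3 (2) replicate 1, 2 genes rose and 13 fell for both shRNAs. Left as deposited, without scaling, FPKM gave 3 higher and 3 lower genes for sh-B7-H3 (1) and 0 higher and 9 lower in bulk, and it put 86.4% instead of 61.4% of all genes called for both shRNAs on the higher side.

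**Figure D2:**
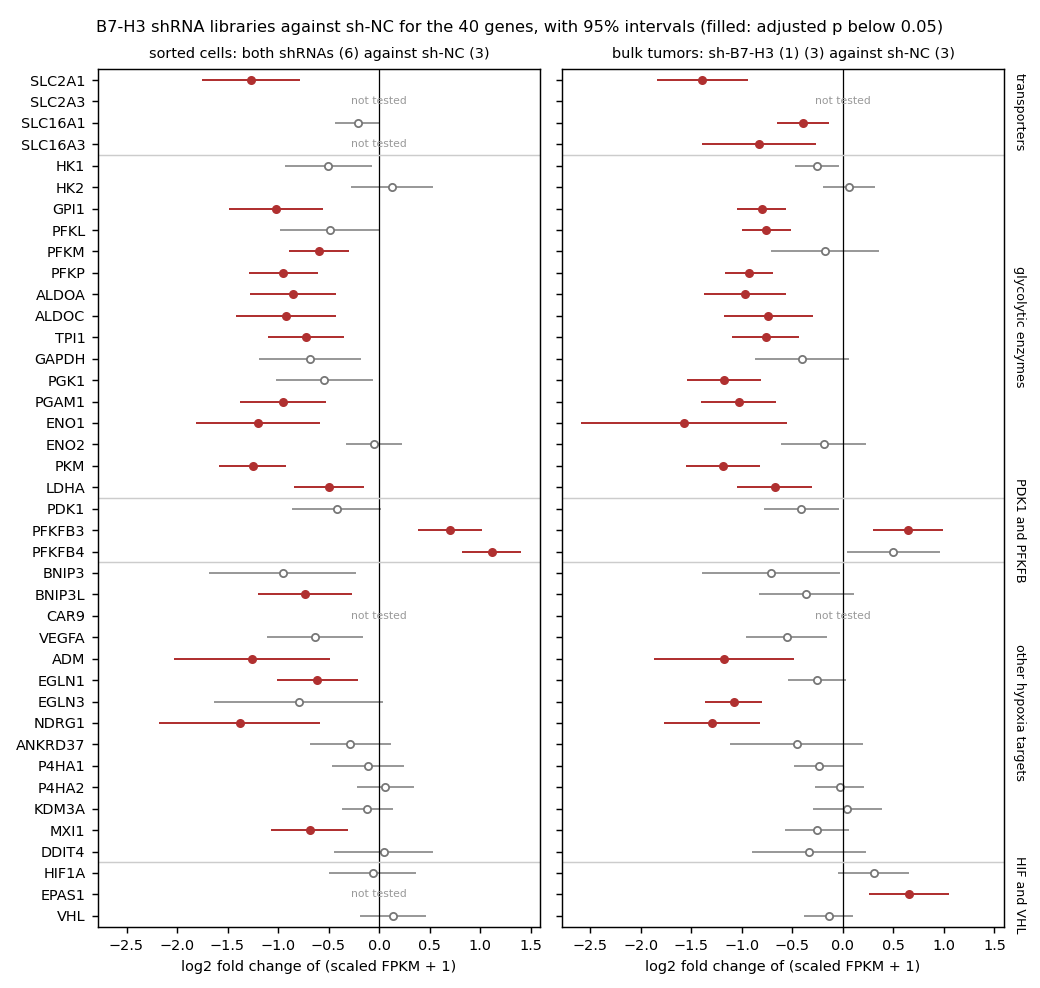
Log2 fold change of (scaled FPKM + 1) with its 95% interval for the genes tested, 36 of 40 in sorted cells (left, 6 libraries of both shRNAs against 3 of sh-NC) and 38 of 40 in bulk tumors (right, 3 against 3), with filled points for adjusted p below 0.05. Most enzymes and SLC2A1 lie left of 0 in both panels, HK2, ENO2, P4HA2 and KDM3A lie near 0, and PFKFB3 and PFKFB4 lie to the right, with PFKFB4 filled in the left panel and not in the right one. In the left panel PFKFB4 passed the filter through the sh-B7-H3 libraries.

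HIF binds a short core that reads ACGTG or GCGTG. Within the 250 bases before a start site in the RefSeq promoter table (GRCm38.p6, the patch release of mm10), at least 1 of these cores on either strand was present at 41 of 54 start sites of the 36 genes that matched (75.9%), against 38.6% of the 32851 start sites in the table. EPAS1, SLC2A3, BNIP3L and NDRG1 did not match. Windows are given for a pair of genes that fell, SLC2A1 (chr4:119108495-119108744, + strand) and PGAM1 (chr19:41911621-41911870, + strand). They are also given for PFKFB3, which rose (upstream start, chr2:11553930-11554179, - strand, and downstream start, chr2:11502091-11502340, - strand). The last is PFKFB4 (chr9:108991652-108991901, + strand), whose call in sorted cells carries no weight. All windows run 5′ to 3′ in the direction of the gene, with the cores in capitals. A core on the other strand reads CACGT or CACGC, and CACGTG, which is also an E-box of the kind MYC binds, counts on both strands.
SLC2A1: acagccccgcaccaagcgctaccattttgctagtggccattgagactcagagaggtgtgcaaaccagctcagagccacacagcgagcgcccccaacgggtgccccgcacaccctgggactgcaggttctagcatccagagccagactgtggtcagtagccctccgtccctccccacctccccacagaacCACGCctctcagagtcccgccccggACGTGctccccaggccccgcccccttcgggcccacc
PGAM1: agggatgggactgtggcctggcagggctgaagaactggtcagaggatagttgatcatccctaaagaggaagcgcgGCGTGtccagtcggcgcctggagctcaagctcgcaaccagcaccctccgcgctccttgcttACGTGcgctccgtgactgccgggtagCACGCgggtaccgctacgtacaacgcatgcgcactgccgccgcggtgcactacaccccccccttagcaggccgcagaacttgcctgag
PFKFB3 upstream start: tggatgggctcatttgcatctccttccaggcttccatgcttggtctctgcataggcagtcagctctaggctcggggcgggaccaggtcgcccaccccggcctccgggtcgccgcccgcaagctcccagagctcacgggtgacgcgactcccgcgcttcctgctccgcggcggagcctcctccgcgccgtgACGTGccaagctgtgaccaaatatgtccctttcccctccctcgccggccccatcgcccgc
PFKFB3 downstream start: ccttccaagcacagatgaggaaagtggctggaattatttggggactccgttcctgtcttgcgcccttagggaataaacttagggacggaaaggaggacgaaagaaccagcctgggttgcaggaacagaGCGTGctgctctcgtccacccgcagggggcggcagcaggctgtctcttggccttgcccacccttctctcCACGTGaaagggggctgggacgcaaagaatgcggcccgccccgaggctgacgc
PFKFB4: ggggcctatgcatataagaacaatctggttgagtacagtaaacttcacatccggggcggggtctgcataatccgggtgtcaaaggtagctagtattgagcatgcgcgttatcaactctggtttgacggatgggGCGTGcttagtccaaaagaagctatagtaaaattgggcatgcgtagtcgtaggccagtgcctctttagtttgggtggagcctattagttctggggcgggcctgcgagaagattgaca
SLC2A1 and PGAM1, which fell, and PFKFB3, which rose, all hold cores in these windows, and so does PFKFB4. TPI1 and GPI1, which fell, hold none. A match is a run of letters and not a measured binding site.

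SLC2A1 encodes GLUT1, the main glucose transporter of many tumor cells, and made up at least 97.8% on average of the SLC2A1 and SLC2A3 level in every group. It stood at 124, 152 and 111 scaled FPKM in sorted sh-NC cells, at 53.3, 72.9 and 64.6 with sh-B7-H3 (1) and at 33.3, 50.3 and 49.9 with sh-B7-H3 (2). Bulk sh-NC tumors gave 92.2, 88.4 and 121 and bulk sh-B7-H3 (1) tumors 30.7, 35.5 and 47.2. No sh-B7-H3 library overlapped its controls. The log2 fold change was -1.27 ± 0.21 for both shRNAs together (adjusted p = 0.00175), -1.01 ± 0.18 and -1.53 ± 0.20 for the first and the second shRNA, and -1.39 ± 0.19 in bulk (adjusted p = 0.00526). An exact two-sided permutation test over the 84 ways to assign 6 against 3 libraries gave p = 0.0119, the smallest it can give, which adjusted over all genes is 0.0628. It takes the 6 libraries as exchangeable, although same-numbered libraries of the shRNA groups deviated together. SLC16A1, which encodes the lactate exporter MCT1, changed little in sorted cells (-0.21 ± 0.10, adjusted p = 0.153) and fell in bulk (-0.39 ± 0.11, adjusted p = 0.0404).

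SLC16A3, which encodes the hypoxia-induced lactate exporter MCT4, was low in sorted cells. It measured 0.347, 0.708 and 0.469 scaled FPKM in sorted sh-NC cells against 5.80, 4.92 and 8.77 in bulk sh-NC tumors, without overlap. It passed the filter on low values through the bulk libraries alone, so this difference is given without a test. In bulk sh-B7-H3 (1) tumors it fell to 2.58, 4.39 and 2.63 (-0.83 ± 0.24, adjusted p = 0.0467). Sorted sh-B7-H3 cells gave 0.895, 1.13 and 0.944 with sh-B7-H3 (1) and 2.13, 0.757 and 0.765 with sh-B7-H3 (2), and the highest of these is the library with leukocyte markers. In a bulk tumor, fewer cells of a type and less RNA per cell cannot be told apart.

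Among the enzymes, PKM, the pyruvate kinase of the last step to pyruvate, fell in sorted cells and in bulk. Sorted sh-NC cells gave 1010.1, 1116 and 984 scaled FPKM, and the sh-B7-H3 cells 431, 489 and 503 with the first shRNA and 335, 432 and 435 with the second. In bulk it went from 1152, 888 and 1181 to 431, 502 and 469. All sh-B7-H3 libraries lay at or under 503, and no control library lay under 888. This is 0.420 of the control level in sorted cells (-1.25 ± 0.15, adjusted p = 0.000159) and 0.438 in bulk (-1.19 ± 0.15, adjusted p = 0.00457). The table holds 1 value for PKM, so its splice forms PKM1 and PKM2 cannot be told apart.

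PGAM1, phosphoglycerate mutase, and PFKP, the platelet form of phosphofructokinase, moved the same way. PGAM1 measured 503, 704 and 676 scaled FPKM in sorted sh-NC cells, 340.2, 382 and 394 with sh-B7-H3 (1) and 231, 293 and 318 with sh-B7-H3 (2), a log2 fold change of -0.95 ± 0.19 for both (adjusted p = 0.00472). In bulk it measured 505, 548 and 698 against 254, 308 and 287 (-1.03 ± 0.15, adjusted p = 0.00702). PFKP measured 58.4, 71.4 and 56.6 in sorted sh-NC cells, 34.1, 39.1 and 36.1 with the first shRNA and 24.3, 28.8 and 29.5 with the second (-0.95 ± 0.15, adjusted p = 0.00123). Neither gene showed any overlap between sh-B7-H3 and control libraries. Bulk PFKP values were 51.9, 51.4 and 50.9 against 24.4, 29.6 and 25.8 (-0.93 ± 0.10, adjusted p = 0.00298).

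GPI1, glucose-6-phosphate isomerase, catalyses the second step. It measured 216, 246 and 177 scaled FPKM in sorted sh-NC cells, 92.6, 138 and 127 with sh-B7-H3 (1) and 67.7, 106 and 107 with sh-B7-H3 (2). Bulk values were 247, 221 and 232 for sh-NC and 124, 133 and 143 for sh-B7-H3 (1). The groups did not overlap, with log2 fold changes of -1.02 ± 0.21 in sorted cells (adjusted p = 0.00564) and -0.80 ± 0.10 in bulk (adjusted p = 0.00438).

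ENO1, enolase of the step before pyruvate kinase, showed a large but variable difference. Its values were 113, 142 and 158 scaled FPKM in sorted sh-NC cells, 59.7, 78.7 and 101 with sh-B7-H3 (1) and 38.4, 48.6 and 47.2 with sh-B7-H3 (2), and 125, 132 and 170.5 against 44.5, 92.1 and 24.6 in bulk. The log2 fold changes were -1.20 ± 0.27 in sorted cells (adjusted p = 0.0102) and -1.58 ± 0.43 in bulk (adjusted p = 0.0418). ENO1B, a near-identical copy listed on its own, held more of the enolase level than ENO1 in every group, between 67.8% and 79.4% on average, so how reads were split between them is uncertain. The sum of both is free of that split only if both entries have the same length and no shared reads were dropped. Neither is known here. The sum was 433, 484 and 494 in sorted sh-NC cells, 219, 244 and 280.4 with the first shRNA and 178, 234 and 261 with the second. In bulk it was 566, 564 and 586 against 203, 299 and 218. The sum, which was added after the values were seen and not tested, was below every control in each sh-B7-H3 library. GAPDH, PGK1, LDHA, ALDOA, TPI1 and PGAM1 also have processed pseudogenes that can share reads.

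PGK1, phosphoglycerate kinase, was called in bulk but not in sorted cells. Bulk sh-NC tumors gave 611, 549 and 705 scaled FPKM and bulk sh-B7-H3 (1) tumors 234, 313 and 278 (-1.18 ± 0.15, adjusted p = 0.00470). Sorted cells gave 409.8, 709 and 811 for sh-NC, 490.0, 404 and 482 with sh-B7-H3 (1) and 339.9, 393 and 457 with sh-B7-H3 (2), where sh-NC replicate 1 overlapped the sh-B7-H3 libraries (-0.54 ± 0.21, adjusted p = 0.104). The difference between the bulk and the sorted effect was -0.74 ± 0.33 (adjusted p = 0.334), so the effects were not shown to differ.

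Of the remaining enzymes, ALDOA, ALDOC and TPI1 fell in both materials, with log2 fold changes of -0.85, -0.92 and -0.72 in sorted cells of both shRNAs and -0.97, -0.74 and -0.76 in bulk. LDHA, which makes lactate from pyruvate, fell by less than most, -0.49 in sorted cells and -0.68 in bulk (adjusted p = 0.0426 and 0.0254). PFKM, the muscle form of phosphofructokinase, fell in sorted cells (-0.60) and PFKL, the liver form, in bulk (-0.76). GAPDH gave -0.68 ± 0.22 in sorted cells (adjusted p = 0.0550) and -0.41 ± 0.19 in bulk (adjusted p = 0.167), and was not called. ENO2, the neuronal enolase, was near 1 scaled FPKM in most libraries and was not called. In all, 10 of 16 enzymes fell in sorted cells of both shRNAs and 11 of 16 in bulk, beside 7.92% and 8.52% of all genes, and none rose. With FPKM as deposited these counts were 7 and 5, and the share of all genes that fell under that setting is not given here. As scaled, 15 of 16 enzymes had a negative value in both comparisons. Bulk sh-B7-H3 (1) replicate 2 had a summed level of 811 for 12 skeletal muscle genes, against 3.19 to 243 in the other bulk libraries. It was also the highest of the bulk sh-B7-H3 (1) libraries for PFKM (13.98), ALDOA (683) and ENO1 (92.1), and the part of muscle RNA in these values was not tested.

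**Figure D3:**
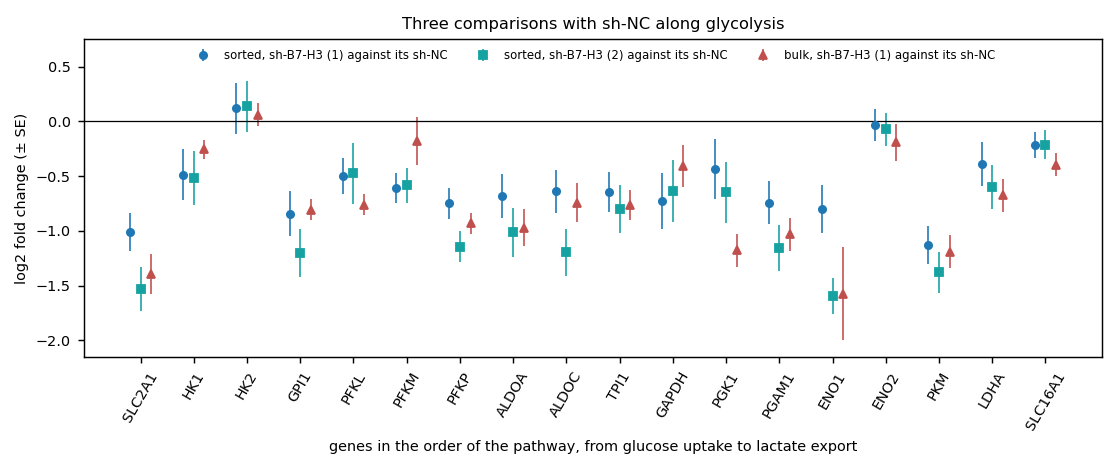
Log2 fold change with its standard error for transporters and enzymes in the order of the pathway, for sorted sh-B7-H3 (1), sorted sh-B7-H3 (2) and bulk sh-B7-H3 (1) libraries, each against its own sh-NC. HK2 and ENO2 lie near 0, and SLC2A1, ENO1 and PKM are among the largest decreases.

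Hexokinase traps glucose in the cell, and neither of its genes was called in sorted cells, while their proportion differed. HK1 measured 75.8, 54.9 and 39.9 scaled FPKM in sorted sh-NC cells, 33.1, 44.2 and 40.6 with sh-B7-H3 (1) and 30.6, 42.5 and 42.6 with sh-B7-H3 (2). HK2, the hypoxia-inducible form, measured 30.8, 20.7 and 15.7 in sh-NC, 20.3, 25.7 and 25.0 with the first shRNA and 20.4, 26.0 and 25.6 with the second. The groups overlapped for both genes (-0.50 ± 0.19 for HK1 and 0.13 ± 0.18 for HK2, adjusted p = 0.0931 and 0.671). As a share within each library, which does not depend on the scaling, HK1 made up 71.8% ± 0.78 (SD, n = 3) of HK1 plus HK2 in sorted sh-NC cells, 62.4% ± 0.77 with the first shRNA and 61.5% ± 1.37 with the second. In bulk it was 71.0% ± 1.57 in sh-NC and 66.2% ± 0.62 in sh-B7-H3 (1) tumors. The shares of sh-B7-H3 and control libraries did not overlap in either material. This share was looked at after the values were seen and was not tested.

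**Figure D4:**
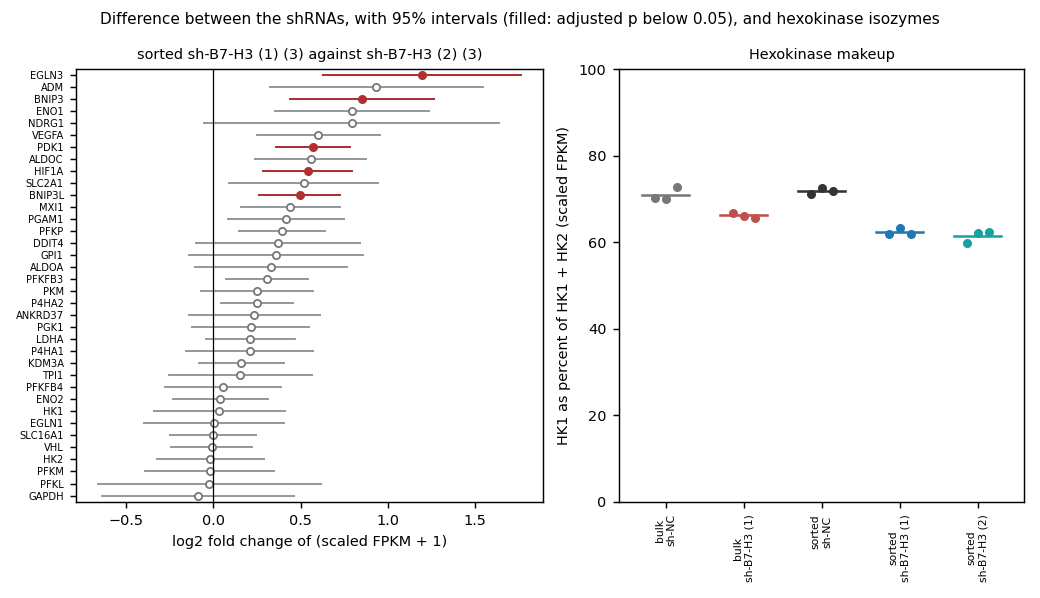
Left, log2 fold change of sorted sh-B7-H3 (1) against sh-B7-H3 (2) libraries with its 95% interval for the 36 genes tested, filled for adjusted p below 0.05. Right, HK1 as a percent of HK1 plus HK2 in each library with group means, at 71.8% in sorted sh-NC and 62.4% and 61.5% in the sorted sh-B7-H3 groups.

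PFKFB3 and PFKFB4 make and break fructose 2,6-bisphosphate, the strongest activator of phosphofructokinase, and went the other way. PFKFB3 measured 7.62, 6.99 and 5.39 scaled FPKM in sorted sh-NC cells, 12.6, 14.4 and 11.5 with sh-B7-H3 (1) and 10.3, 9.79 and 10.3 with sh-B7-H3 (2). Bulk tumors gave 9.89, 7.26 and 9.36 for sh-NC and 16.3, 12.6 and 14.1 for sh-B7-H3 (1). Every sh-B7-H3 library was above every control, with log2 fold changes of 0.70 ± 0.14 in sorted cells (adjusted p = 0.00482) and 0.65 ± 0.14 in bulk (adjusted p = 0.0241). PFKFB4 measured 1.05, 0.714 and 0.755 in sorted sh-NC cells, 3.43, 2.71 and 3.04 with the first shRNA and 3.70, 2.42 and 2.67 with the second, a log2 fold change of 1.12 ± 0.13 (adjusted p = 0.000125). In bulk it measured 2.09, 2.34 and 2.22 against 3.95, 4.59 and 2.37 and was not called (0.50 ± 0.19, adjusted p = 0.101). In sorted sh-NC cells 1 library reached 1 scaled FPKM for PFKFB4. It passed the filter through the sh-B7-H3 libraries, so its call in sorted cells carries no weight. With the filter applied in every library PFKFB3 remained as the 1 gene that rose in sorted cells. The low level of PFKFB4 in sorted sh-NC cells, near the pseudocount of 1, makes its fold change smaller on this scale. PDK1 inhibits pyruvate dehydrogenase, the enzyme that turns pyruvate into acetyl-CoA in mitochondria. It fell with sh-B7-H3 (2), to 15.6, 16.3 and 16.4 from 22.6, 33.5 and 25.5 in sh-NC (-0.70 ± 0.16, adjusted p = 0.0186). It measured 25.9, 25.2 and 22.3 with sh-B7-H3 (1), which was not called (-0.13 ± 0.17, adjusted p = 0.708), and its bulk difference was not called either (-0.41 ± 0.15, adjusted p = 0.0911).

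**Figure D5:**
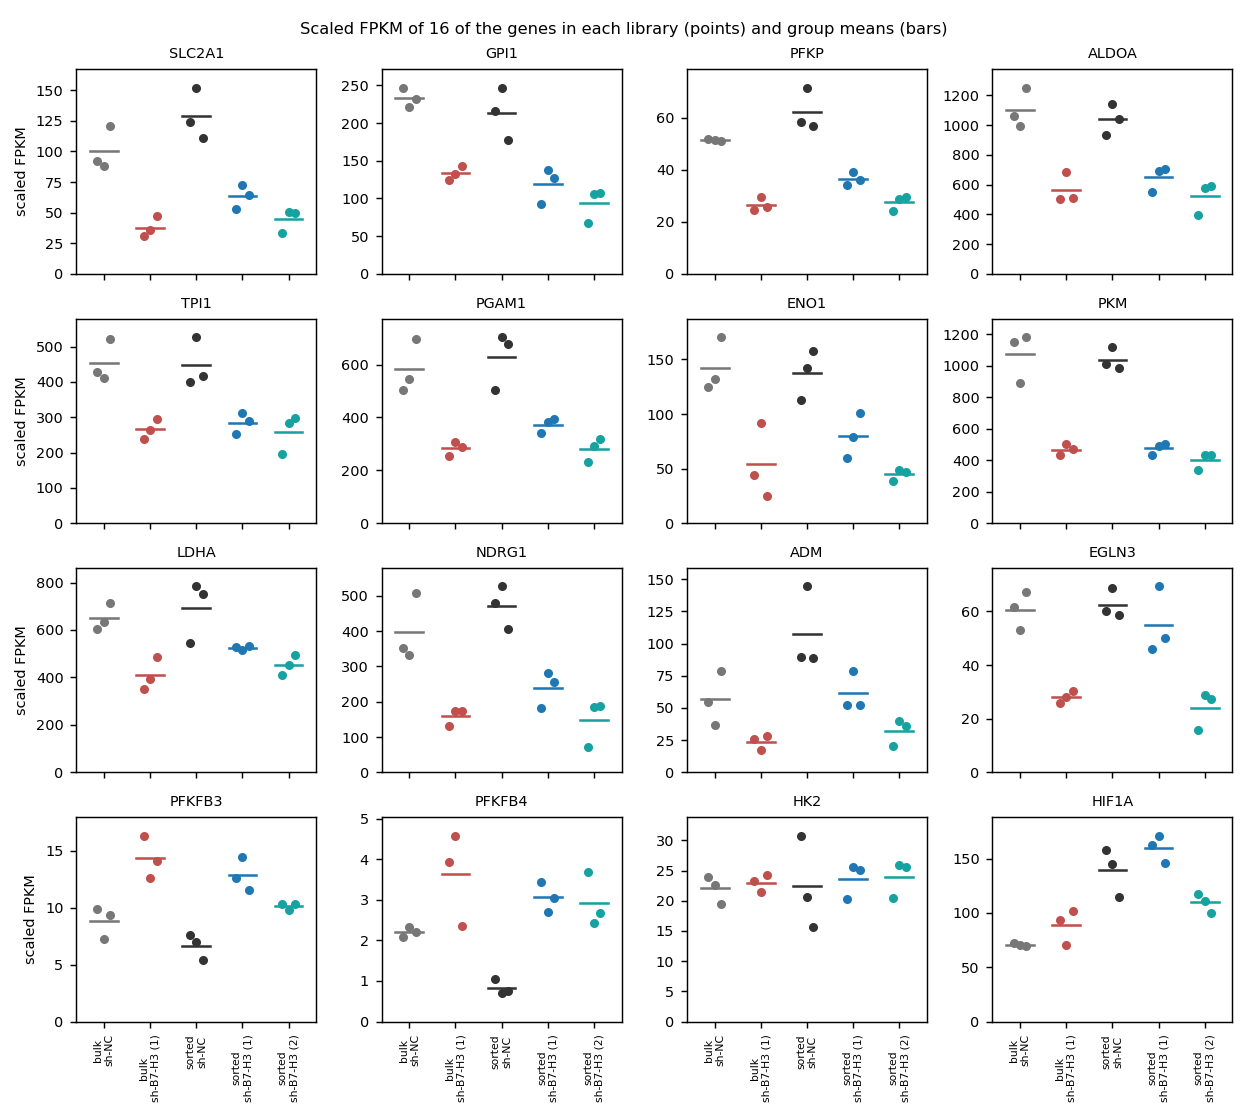
Scaled FPKM of 16 of the genes in each library (points) with group means (bars), vertical axes from 0. SLC2A1, GPI1, PFKP, PGAM1 and PKM show no overlap between sh-B7-H3 and control libraries in either material, PFKFB3 and PFKFB4 lie above their controls in each sh-B7-H3 library, and HK2 overlaps.

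Of 13 other hypoxia targets tested, 5 fell in sorted cells with both shRNAs pooled and 3 in bulk, beside 7.92% and 8.52% of all genes. The median log2 fold change of the 13 was -0.64 and -0.36. Of the 5, only NDRG1 was called with each shRNA alone. NDRG1, a stress-response gene widely used as a hypoxia marker, fell in every comparison of sh-B7-H3 with sh-NC. It measured 480.0, 527 and 405 scaled FPKM in sorted sh-NC cells, 183, 281 and 256 with sh-B7-H3 (1) and 72.1, 185 and 188 with sh-B7-H3 (2) (-1.38 ± 0.35, adjusted p = 0.0190). Bulk values were 351, 332 and 507 against 130.4, 174 and 173 (-1.30 ± 0.20, adjusted p = 0.00743). The lowest value, 72.1, came from the sorted library with leukocyte markers. ADM, which encodes the vasodilator adrenomedullin, measured 89.4, 144 and 88.9 in sorted sh-NC cells, 52.6, 79.0 and 52.2 with the first shRNA and 20.6, 39.7 and 36.2 with the second (-1.26 ± 0.34, adjusted p = 0.0255). It fell in bulk as well, from 54.6, 37.0 and 78.7 to 25.9, 17.5 and 28.3 (-1.18 ± 0.29, adjusted p = 0.0320). MXI1, a MYC antagonist, EGLN1, the prolyl hydroxylase PHD2, and the mitophagy receptor BNIP3L fell in sorted cells (-0.69, -0.61 and -0.74) and were not called in bulk (-0.26, -0.26 and -0.36). VEGFA, the vessel growth factor, gave -0.64 ± 0.21 for both shRNAs (adjusted p = 0.0564), -0.94 ± 0.16 for sh-B7-H3 (2) alone, where it was called (adjusted p = 0.00616), and -0.56 ± 0.17 in bulk (adjusted p = 0.0538). P4HA1, P4HA2, KDM3A, ANKRD37 and DDIT4 were called in none of the comparisons with sh-NC, with values between -0.29 and 0.06 for both shRNAs in sorted cells.

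EGLN3, the strongly hypoxia-induced prolyl hydroxylase PHD3, differed between the shRNAs. It measured 60.3, 68.8 and 58.7 scaled FPKM in sorted sh-NC cells, 45.9, 69.4 and 50.1 with sh-B7-H3 (1) and 15.6, 28.9 and 27.3 with sh-B7-H3 (2). The first shRNA overlapped the controls (-0.20 ± 0.18, adjusted p = 0.574), while the second lay below them (-1.39 ± 0.23, adjusted p = 0.00431). The shRNAs differed by 1.20 ± 0.25 (adjusted p = 0.0445). In bulk, where only sh-B7-H3 (1) was used, EGLN3 fell from 61.5, 53.0 and 67.3 to 25.8, 28.1 and 30.2 (-1.08 ± 0.12, adjusted p = 0.00308). The bulk effect of that shRNA minus its sorted effect was -0.88 ± 0.22, which was not called (adjusted p = 0.115).

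In the direct comparison of the shRNAs in sorted cells, 5 of the 36 genes were higher with sh-B7-H3 (1) and none lower, beside 1.76% of all genes that were higher. Besides EGLN3 these were BNIP3, BNIP3L, PDK1 and HIF1A. BNIP3, a mitophagy receptor, measured 152, 159 and 127 with the first shRNA and 60.9, 92.7 and 91.1 with the second (0.85 ± 0.18, adjusted p = 0.0482), with 131, 277 and 256 in sh-NC. BNIP3L measured 69.5, 61.5 and 57.6 with the first shRNA and 45.5, 44.5 and 42.8 with the second (0.49 ± 0.10, adjusted p = 0.0412), with 63.1, 99.6 and 109.6 in sh-NC. PDK1 differed by 0.57 ± 0.09 (adjusted p = 0.0218). The samples of these groups with the same replicate number deviated together (r = 0.209, 0.229 and 0.209), a hint from these same values that does not establish a pairing. With the number as a block 15 genes were higher with sh-B7-H3 (1), beside 9.03% of all genes, and this count depends on that pairing. Among the 15 were SLC2A1, ENO1, PGAM1, PFKP, GPI1, ALDOA, VEGFA, ADM, NDRG1 and MXI1. The 5 calls rest on single libraries, since none was made without sh-B7-H3 (1) replicate 2 or 3 or without sh-B7-H3 (2) replicate 2 or 3, and 1 was made without sh-B7-H3 (1) replicate 1. Leaving out the library with leukocyte markers, sh-B7-H3 (2) replicate 1, left 5 calls. The fibroblast marker sum also differed between these groups, at 49.0 to 81.4 with sh-B7-H3 (1) and 114 to 152 with sh-B7-H3 (2), and its part was not tested.

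HIF1A, the oxygen-regulated subunit itself, was not called in any comparison of sh-B7-H3 with sh-NC. It measured 157, 145 and 115 scaled FPKM in sorted sh-NC cells, 162, 171 and 146 with sh-B7-H3 (1) and 118, 111 and 100.03 with sh-B7-H3 (2). The shRNAs differed from each other (0.54 ± 0.11, adjusted p = 0.0416), and both shRNAs together gave -0.06 ± 0.19 (adjusted p = 0.854). Bulk tumors gave 71.9, 70.4 and 69.7 for sh-NC and 93.5, 70.1 and 102 for sh-B7-H3 (1) (0.30 ± 0.14, adjusted p = 0.163). HIF1A is controlled mainly through the stability of its protein, which these data do not measure. VHL gave 0.14 ± 0.14 in sorted cells and -0.14 ± 0.10 in bulk and was not called.

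EPAS1, which encodes HIF2A and is known for high expression in endothelium, was low in sorted cells. It stood at 2.59, 3.68 and 2.71 scaled FPKM in bulk sh-NC tumors and at 5.63, 6.13 and 4.16 in bulk sh-B7-H3 (1) tumors, where it rose (0.66 ± 0.16, adjusted p = 0.0341). Sorted libraries lay between 0.0729 and 0.263, apart from 4.24 in sh-B7-H3 (2) replicate 1, the library with a leukocyte marker sum of 188. In bulk the leukocyte sum ranged from 165 to 245 in sh-NC and from 152 to 327 in sh-B7-H3 (1) tumors, the sum of 7 endothelial markers from 28.8 to 54.8 and from 24.8 to 44.2, and that of 6 fibroblast markers from 81.1 to 156 and from 265 to 635. The part of host cells in the EPAS1 values was not tested.

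Bulk and sorted controls held a similar summed level of the enzymes, with a ratio of means of 1.02. In bulk sh-NC against sorted sh-NC libraries, 4 of 38 genes were higher and 2 lower, beside 10.4% and 6.48% of all genes. Both counts are near those shares, so they do not set these genes apart from the rest. The higher ones were PFKL (0.68 ± 0.14), PFKFB4 (0.81 ± 0.12), SLC16A3 and EPAS1, of which SLC16A3 and EPAS1 passed the filter through the bulk libraries alone and PFKFB4 through these and 1 sorted library, so their calls carry no weight. The lower ones were HIF1A (-0.96 ± 0.15) and PDK1 (-0.58 ± 0.16). PFKL measured 59.5, 52.8 and 61.3 scaled FPKM in bulk and 37.6, 39.5 and 30.4 in sorted sh-NC. In sh-B7-H3 (1) libraries, 3 genes were higher in bulk than in sorted cells and 13 lower, beside 21.1% and 17.1% of all genes. The higher ones were PFKL (0.42 ± 0.14) and again SLC16A3 and EPAS1, which passed the filter through the bulk libraries and at most 1 sorted library. The largest decreases there were ADM (-1.32 ± 0.22), BNIP3 (-1.02 ± 0.25), EGLN3 (-0.93 ± 0.16) and the mTORC1 inhibitor DDIT4 (-0.89 ± 0.16). BNIP3 measured 64.0, 52.0 and 108 and PDK1 12, 11.0 and 16.6 in bulk sh-B7-H3 (1) tumors, beside the sorted values given above. DDIT4 measured 65.0, 69.4 and 59.4 in bulk and 116, 100.32 and 148 in sorted sh-B7-H3 (1) libraries, without overlap. Sorted cells went through tissue dissociation, and a list of 10 stress genes linked with it summed to between 672 and 1306 in sorted libraries against 158 to 203 in bulk. Of the 10, 7 were lower in bulk than in sorted sh-NC libraries, FOS, FOSB, EGR1, ATF3, JUN, JUNB and IER2, and HSPA1A (-0.11), HSPA1B (0.04) and DNAJB1 (-0.02) were not called. Within the sorted libraries it summed to 672 to 844 in sh-NC and to 967 to 1306 in sh-B7-H3 cells, and its part in the comparisons was not tested. Without any 1 of the 3 bulk sh-NC libraries no gene of the control comparison was called, and the 16 called between the sh-B7-H3 (1) libraries became 8 without bulk sh-B7-H3 (1) replicate 1. With FPKM scaled to a common total after leaving out the most abundant entry, 5 were higher and 8 lower in that comparison.

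The effect of sh-B7-H3 (1) on the 38 genes tested was not shown to differ between bulk tumors and sorted cells. None was called for the difference by limma, beside 0.464% of 12062 genes, and 5 had an unadjusted p below 0.05. SLC16A3 and EPAS1 entered this fit through the bulk libraries. The difference of EGLN3 was -0.88 ± 0.22 (adjusted p = 0.115), that of PKM had an interval of -0.52 to 0.39 and that of SLC2A1 one of -0.97 to 0.20.

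The next counts are to be read beside the 7.92% of all genes that fell and the 12.6% that rose in sorted cells of both shRNAs, and the 8.52% and 12.8% in bulk. Of 7 pentose phosphate genes, 3 fell and 1 rose for both shRNAs in sorted cells, and 5 fell and 1 rose in bulk. PGD, the second oxidative enzyme, fell in both (-1.10 ± 0.17 in sorted cells, -0.78 ± 0.11 in bulk), and RPIA, ribose-5-phosphate isomerase, rose in both (1.29 ± 0.10 and 0.85 ± 0.12). Of 33 further hypoxia targets, 8 fell and 3 rose of 28 tested in sorted cells (the 3 that rose are a share under that of all genes), and 12 fell and 6 rose of 30 tested in bulk. The lowest in sorted cells were STC2, a secreted glycoprotein (-1.22 ± 0.37), and ERO1L, the oxidase of disulfide formation (-1.21 ± 0.23), with the glycogen branching enzyme GBE1 close by (-1.11 ± 0.16). In bulk the lowest were the chemokine receptor CXCR4 (-1.35 ± 0.39) and the hexokinase relative HKDC1 (-1.20 ± 0.13), which passed the filter through the sh-NC libraries alone. IGFBP3, which binds insulin-like growth factors, rose by 2.72 ± 0.18 in sorted cells, where the glucose transporter SLC2A6 also rose (1.76 ± 0.12), and by 0.53 ± 0.15 in bulk. The effect of sh-B7-H3 (1) on IGFBP3 differed between bulk and sorted cells (-2.19 ± 0.25, adjusted p = 0.00854). In sh-NC libraries IGFBP3 was already higher in bulk than in sorted cells (3.21 ± 0.20), and the part of other cells in this difference was not tested. LOX and LOXL2, which crosslink collagen, rose in bulk (1.53 ± 0.14 and 2.01 ± 0.12) and by more than with the same shRNA in sorted cells (difference 1.79 ± 0.22 and 1.75 ± 0.21, adjusted p = 0.00854 for both). The fibroblast marker sum was higher in the same bulk tumors, as given above, and its part was not tested. A list of 12 genes covers the mitochondrial pyruvate carriers and pyruvate dehydrogenase with its kinases and phosphatases. Of these 12, 3 fell in sorted cells and 1 in bulk, the latter near the share of all genes. The 3 were PDK2, a kinase that inhibits the dehydrogenase, and the dehydrogenase subunits PDHA1 and DLAT. The carriers MPC1 and MPC2 were not called in sorted cells. Of 11 further glycolytic genes tested 2 rose and 1 fell in sorted cells and 1 rose and 1 fell in bulk, of 3 gluconeogenic genes tested 1 and 2 fell, and of 6 and 8 glycogen genes tested 1 and 2 fell. None of 9 further genes of the oxygen-sensing machinery was called in sorted cells, and limma gave 0 at an unadjusted p below 0.05, and in bulk 2 rose, the coactivators EP300 (0.62) and CREBBP (0.88), and 1 fell, RBX1 of the VHL ubiquitin ligase (-0.41).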

How the data were processed

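RNA was sequenced from 15 libraries in 5 groups of 3, grouped by the labels. The study's methods name a KAPA mRNA HyperPrep kit, single-end sequencing and the VIPER pipeline, while an Illumina stranded mRNA kit stands in the labels. The submitters' processing notes name mm10, and the aligner and annotation are not given in the sources used here. The authors deposited FPKM per gene symbol, a unit normalized for library size and transcript length, for 24917 entries. 26 entries whose symbols had turned into dates were left out. A second deposited table, of fewer genes on a log2 scale, was not used. FPKM keeps no read totals, so the depth of each library is known only relative to the others, and no counting interval can be given.

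FPKM were divided by a size factor per library, the median ratio to the geometric mean over 9872 genes. Only genes that no library put below 1 FPKM were used for it. The scaling was done because 1 entry, MIR6236, took between 6.01% and 79.7% of the FPKM of a library. The factors lay between 0.650 and 1.18. A gene entered a comparison when 3 or more of its libraries reached 1 scaled FPKM. These genes were fitted on log2(scaled FPKM + 1) with limma 3.58.1 (trend, two-sided) in R 4.3.3 and adjusted by the Benjamini-Hochberg method over all genes tested. The fit was tested on simulated data. Single values had exact two-sided permutation tests, where 3 against 3 libraries cannot go below p = 0.1. Replicates correlated with r between 0.906 and 0.986 over 12194 genes. The methods speak of biological samples, and nothing in the labels says that they came from separate animals, so p-values measure the spread between these samples.

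Same-numbered libraries of the 2 sorted sh-B7-H3 groups deviated from their group means together (r = 0.209, 0.229 and 0.209), so the number was taken to pair these groups on that hint from the values, and no other groups. Differently numbered libraries of other groups reached r = 0.544 (bulk sh-NC replicate 3 with bulk sh-B7-H3 (1) replicate 2), so these values do not establish a pairing. Alternatives changed the scaling, pseudocount, filter, fit and block, and left out each library in turn. Values in every library are given for up to 8 called genes with the largest change in each comparison and for isozymes that went opposite ways, and from the other lists up to 3 of the largest changes in each direction, of which 1 is not reported here. PGD, EP300 and RBX1, the ENO1 and ENO1B sum and the hexokinase share were added after the values were seen. So were PDK2, PDHA1, DLAT, MPC1 and MPC2 and the values of single epithelial and macrophage markers. The genes, lists and tests were chosen with earlier results of these data known. Python 3.11.15 was used for sums and promoter windows.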

Additional observations from a re-analysis of the deposited data

Results flagged for a closer look

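Among the 6 sorted sh-B7-H3 libraries, 39 of the genes were screened for a single library far from the others, with a gap to its neighbour above Dixon's 95% critical share of the range. The screen picks about 1 in 20 genes by chance. All 5 genes picked had the same library at the edge, sorted sh-B7-H3 (2) replicate 1. It was highest for SLC16A3 (2.13 scaled FPKM, others 0.757 to 1.13) and EPAS1 (4.24, others 0.176 to 0.263). It was lowest for NDRG1 (72.1, others 183 to 281), ANKRD37 (5.38, others 7.70 to 9.43) and P4HA1 (17.5, others 25.5 to 28.1). The same library had a leukocyte marker sum of 188 and an endothelial sum of 23.5, against at most 7.93 and 1.85 in the other sorted libraries, and the part of host cells in these values was not tested.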

How the results depend on the processing

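No result reversed under any setting. The number of genes called moved by over 1.5 times in these cases, and the cause was not tested. With FPKM as deposited, sh-B7-H3 (1) in sorted cells gave 6 instead of 10, bulk 9 instead of 19, and the bulk minus sorted difference 1 instead of 0. This scaling also moved the median of all genes from about 0 to 0.20 (log2) for both shRNAs in sorted cells, and quantile normalization put 48.8% of all genes called there on the higher side. With no filter bulk gave 12, and with the filter in every library bulk sh-NC against sorted sh-NC gave 3 instead of 6. The comparison of the shRNAs gave 2 instead of 5 with the most abundant entry left out, 2 with quantile normalization, 1 with no filter, 1 with all groups in 1 fit and 15 with the replicate block. The block gave 7, 15, 16, 18, 7, 14 and 0 calls in the other comparisons, in which the numbers were not taken as pairs.

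Leaving out 1 library at a time gave 4 to 18 calls for sh-B7-H3 (1), 12 to 23 for sh-B7-H3 (2) and 9 to 19 for both in sorted cells, 0 to 5 between the shRNAs, 9 to 20 in bulk, 0 to 12 between the controls, 8 to 16 between bulk and sorted sh-B7-H3 (1), and 0 for the difference. The count of genes below every control, 17 in sorted cells and 21 in bulk, became 11 and 15 with FPKM as deposited, and 17 to 23 and 21 to 27 with a library left out, which a smaller group raises by its construction. These last settings were chosen after seeing the data. For single genes, 1069 values kept their direction and side of the threshold and 284 kept the direction only. Genes near or under 1 FPKM, such as SLC2A3 and CAR9, could not be tested.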
